A study of Homo sapiens with 4 samples.

Results

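The genes described here are 46 genes that copy DNA or supply its building blocks. They are the 6 subunits of the origin recognition complex, the loading factors CDC6 and CDT1 with the inhibitor GMNN, the MCM, GINS and CDC45 helicase components with MCM10 and MCM8, the sliding clamp PCNA and its RFC loader, the replicative DNA polymerases and primase, RPA, FEN1, LIG1, and the nucleotide enzymes RRM1, RRM2, TYMS and TK1. They were chosen by name, not by their measured values, although earlier results of these data were known. Each was read from 1 probe, the one with the highest mean log2 signal over the arrays, and a gene had to be well above background on at least 1 array. All 46 of 46 had a probe and were well above background on all 4 arrays, out of 43311 gene names on the array and 17353 well above background on at least 1 array.

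The study hybridized RNA from 4 cultures to 4 one-colour Agilent arrays on 1 slide, 1 array per condition. MDS-L is a cell line derived from myelodysplastic syndrome (MDS), and MDS-L/CDA is its derivative, which the authors made resistant to 5-azacytidine (AZA) by transducing CDA, a gene whose product deaminates cytidine and its analogues. Over 72 h each line was kept either in vehicle, which was DMSO at 0.1%, or in AZA at 1 μM, and all cultures shared RPMI1640 medium with serum, IL-3 and 2-mercaptoethanol. The groups are therefore MDS-L vehicle, MDS-L AZA, MDS-L/CDA vehicle and MDS-L/CDA AZA. Sample titles give the dose as 1 mM where the other label fields and the paper give 1 μM, which was used. For the MDS-L AZA and MDS-L/CDA vehicle samples, 1 label field names the opposite treatment, and the grouping follows the title, the description and the source name. The sources used here do not say whether MDS-L/CDA is a clone or a pool. With 1 array per condition no difference has a replicate check, and no test was made.

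Replication begins when the origin recognition complex, CDC6 and CDT1 load the ring-shaped MCM helicase onto DNA, while geminin (GMNN) keeps CDT1 from loading it again. CDC45 and GINS then turn MCM into an active helicase, primase and polymerase alpha lay down short primers, and polymerases delta and epsilon, tethered by PCNA, extend them on deoxynucleotides made with the help of ribonucleotide reductase and thymidylate synthase. Many of these genes are switched on together late in G1 by the E2F transcription factors, and their RNA is known to be abundant in dividing cells. AZA is a cytidine analogue that enters RNA and DNA and traps DNA methyltransferases.

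Since E2F and the CCAAT-binding factor NF-Y are the best known regulators of this family, the promoters are shown first. RefSeq promoters of GRCh38.p14, running from 250 bases before to 50 bases after each start site, were found for 40 of the 46 genes, and 9 of these genes have several. MCM4, MCM5, GINS4, POLD3, RPA2 and RPA3 had no entry. The search used 4 spellings of an E2F word, TTTGGCGC, TTTGCCGC, TTTCGCGC and TTTCCCGC, and the word CCAAT, each on both strands. An E2F word lay in a promoter of 20 of the 40 genes, against 3.99% of the 27305 genes in the whole table, and CCAAT in 25 of 40, against 39.7%. These matches describe letters in a window and say nothing about binding. The 160 bases before the start site are printed for 5 genes, 5′ to 3′ on the gene's strand, with both kinds of word in capitals. They show the range found, from 4 E2F words in MCM6, which form 2 overlapping pairs, through CDT1 and POLA1 with 1 each, to ORC6 and ORC2, with none but with CCAAT (read as ATTGG on the other strand). The stretches are chr2:135876444-135876603 (minus strand, MCM6), chr16:88803629-88803788 (plus, CDT1), chrX:24693758-24693917 (plus, POLA1), chr16:46689499-46689658 (plus, ORC6) and chr2:200963661-200963820 (minus, ORC2).
MCM6: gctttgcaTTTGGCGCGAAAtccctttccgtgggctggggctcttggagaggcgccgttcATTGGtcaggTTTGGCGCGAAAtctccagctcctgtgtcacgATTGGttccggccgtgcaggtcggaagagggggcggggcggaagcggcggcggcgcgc
CDT1: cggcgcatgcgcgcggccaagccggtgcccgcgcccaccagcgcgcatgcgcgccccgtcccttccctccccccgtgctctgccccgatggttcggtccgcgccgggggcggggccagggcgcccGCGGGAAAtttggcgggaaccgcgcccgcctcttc
POLA1: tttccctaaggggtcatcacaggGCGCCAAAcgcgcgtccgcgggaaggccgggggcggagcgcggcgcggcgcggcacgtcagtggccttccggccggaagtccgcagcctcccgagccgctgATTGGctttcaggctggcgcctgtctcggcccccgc
ORC6: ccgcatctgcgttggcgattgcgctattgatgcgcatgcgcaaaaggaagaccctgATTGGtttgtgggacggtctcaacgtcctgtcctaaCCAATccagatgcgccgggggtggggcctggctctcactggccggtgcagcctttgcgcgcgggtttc
ORC2: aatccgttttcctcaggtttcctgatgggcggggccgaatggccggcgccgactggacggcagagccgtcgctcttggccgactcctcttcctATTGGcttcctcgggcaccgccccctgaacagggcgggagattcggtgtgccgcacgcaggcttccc

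The array check was as follows. Of 58185 gene probes, between 32.6% and 36.5% were well above background on each array, the 75th percentile of signal lay between 37.3 and 52.9, and no spot was saturated. Spots of probes printed 10 times varied with a median SD of 0.118 to 0.205 on the log2 scale, lowest on the MDS-L vehicle array and highest on the MDS-L/CDA AZA array. This spread covers spots on 1 array and not cultures. Of 8 blood cell markers 7 were well above background on the arrays, and MPO was not on any. Among markers of other cell types, CD79A and PECAM1 were well above background on all 4 arrays, and CD3E, EPCAM, KRT19, COL1A1 and CDH5 on none. The probe for the transduced gene, CDA, stayed under the well-above-background limit on the 4 arrays (signals of 4.48 to 5.53), so it does not check the label of the resistant line. All ratios below were taken after subtracting each array's 75th percentile on the log2 scale, whereas signals are quoted before it. Since the 75th percentile was lower on the MDS-L/CDA arrays, an equal signal there is a higher scaled level.

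With AZA, nearly the whole replication set was lower in MDS-L cells. The AZA/vehicle ratio was below 1 for 45 of the 46 genes, with a median log2 ratio of -0.66 (1.58-fold lower), whereas all 17172 genes tested had a median of -0.13 and 58.9% of them were below 1. At least 1.5-fold lower were 26 of 46, where 19.0% of all genes tested were, and 0 of 46 were at least 1.5-fold higher, where 16.1% of all genes were. At a 2-fold limit, 9 of 46 were lower against 7.12% of all genes, and with a Z score of at least 2 required as well, 8 of 46 were lower against 2.67%. The study defines that double rule for increases. Its use for decreases and the way the Z score was computed were added here. The ratios of 37 genes lay below 1 by more than 2 SDs of the spots. The share of all genes past that limit is not given here. Spot SDs were small (median 0.18 for the members' log2 ratios) beside the SD of 0.96 among the log2 ratios of all genes. Bright probes as a class were also somewhat lower: among the 10518 genes in the members' signal range, the median was -0.20 and 19.5% were at least 1.5-fold lower.

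How far below 1 the ratios lay depended on how the arrays were scaled. Under 8 other ways to scale or correct the signals the members' median in MDS-L ran from -1.20 to -0.43, and the median of all genes moved from -0.67 to 0.06. The distance between them was -0.53 with the 75th percentile. Scalings that shift all genes of an array alike cannot move it, and the others gave -0.53 to -0.42. Between 44 and 46 members stayed below 1 under each scaling, and only ORC2 and RRM1 changed side.

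**Figure D1:**
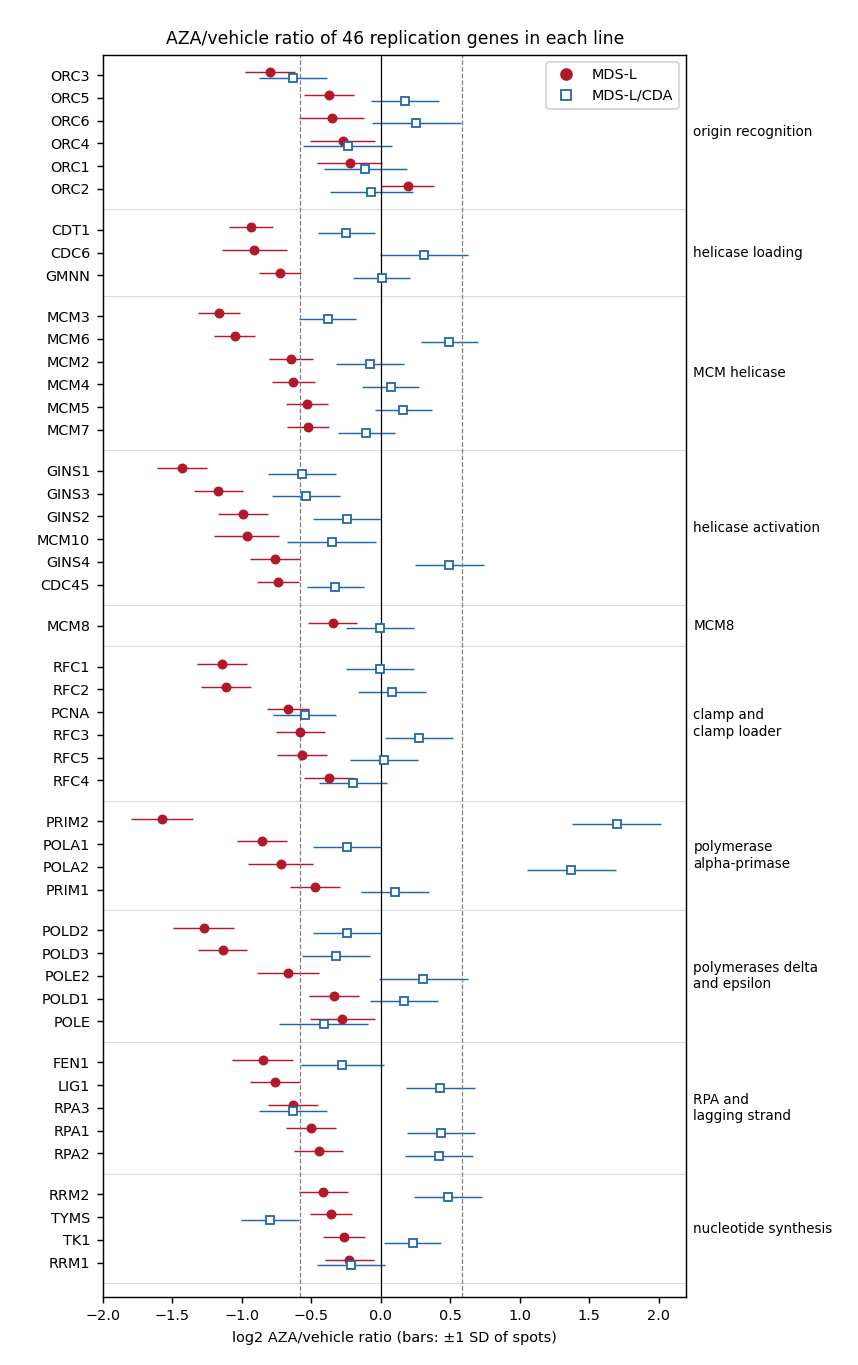
Log2 AZA/vehicle ratio (x axis) of each of the 46 genes, grouped by role, in MDS-L (filled circles) and MDS-L/CDA cells (open squares). Bars are 1 SD of the ratio from spots, not from replicate cultures, and dashed lines mark 1.5-fold. In MDS-L cells 45 genes lie left of the zero line (ORC2 and RRM1 change side under other scalings). In MDS-L/CDA cells 25 do (7 genes change side under other scalings).

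By role, in the order in which the proteins act, the origin recognition complex came first, with small differences. Its 6 subunits had a median log2 ratio, AZA to vehicle, of -0.31 in MDS-L cells, and 1 of them, ORC3, was at least 1.5-fold lower. ORC3 gave 1229 with vehicle and 713 with AZA in MDS-L cells, and 1341 and 792 in MDS-L/CDA cells. With this probe both AZA arrays were the low ones, with log2 ratios of -0.80 and -0.63, whereas a second ORC3 probe read -0.34 and 0.21. ORC2 gave 472, 544, 569 and 496 in the same order, and its log2 ratio of 0.19 in MDS-L cells made it the 1 member above 1, although this turned to -0.35 when arrays were scaled to the median. A dimmer ORC2 probe, well above background on 3 arrays, had the opposite direction in each line, at -0.94 and 0.25. ORC1, the subunit with ATPase activity that starts assembly, was among the 3 members nearest to a ratio of 1 in MDS-L cells, at 358 with vehicle and 309 with AZA (log2 ratio -0.22), and read 556 and 470 in MDS-L/CDA cells. ORC4, ORC5 and ORC6 lay between -0.37 and -0.28 in MDS-L cells, but a second ORC4 probe was at 0.15.

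The loading factors CDC6, CDT1 and GMNN were all at least 1.5-fold lower in MDS-L cells. CDT1, which brings MCM to the origin, gave 7718 with vehicle and 4074 with AZA, and 6544 and 5039 in MDS-L/CDA cells. CDC6, its ATPase partner, gave 80.6 and 43.2, then 74.7 and 84.7. GMNN, the inhibitor of CDT1, gave 9670 and 5880, then 8704 and 7989. For all 3 the MDS-L AZA array was the lowest. Their log2 ratios were -0.91 for CDC6, -0.93 for CDT1 and -0.73 for GMNN, so the loaders and their inhibitor were lower by similar amounts. In MDS-L/CDA cells the same ratios were 0.31, -0.25 and 0.01, with GMNN among the 3 members nearest to 1, on either side of it depending on the scaling.

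All 6 MCM helicase subunits were below 1 in MDS-L cells, with a median of -0.64, and MCM2, MCM3, MCM4 and MCM6 were at least 1.5-fold lower. MCM3 gave 15480 with vehicle and 6970 with AZA in MDS-L cells and 13793 and 9675 in MDS-L/CDA cells, with log2 ratios of -1.16 and -0.38. MCM6 gave 10922 and 5304, then 7540 and 9710. Its AZA array was the lower one in MDS-L cells (log2 ratio -1.05) and the higher one in MDS-L/CDA cells (0.49), a contrast that its neighbours in the ring did not show to this degree. MCM2 and MCM4 were at -0.65 and -0.63 in MDS-L cells, and MCM5 and MCM7 had the smallest differences in MDS-L cells, -0.53 each. However, another MCM7 probe read -0.89 in MDS-L and 0.33 in MDS-L/CDA cells, where the probe used read -0.53 and -0.10. MCM8, which works in recombination and not in the replicative ring, was at -0.35 in MDS-L cells and, with -0.004 in MDS-L/CDA cells, was the member nearest to a ratio of 1 there.

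Helicase activation was the role with the lowest median in MDS-L cells, -0.98, and all 6 of its members were at least 1.5-fold lower. GINS1, a subunit of the GINS complex that joins CDC45 to MCM, gave 4045 with vehicle and 1513 with AZA in MDS-L cells, and 2932 and 1813 in MDS-L/CDA cells. Vehicle was higher than AZA in both lines, with a log2 ratio of -1.43 (2.69-fold lower) in MDS-L cells, against -0.56 in MDS-L/CDA cells. GINS3 followed the same order, with 2629, 1178, 2662 and 1673 and log2 ratios of -1.17 and -0.54. GINS2 was at -0.99, MCM10, which helps to start unwinding, at -0.96, GINS4 at -0.76 and CDC45 at -0.74. In MDS-L/CDA cells 5 of these 6 were also below 1 (median -0.34), but none by 1.5-fold, and GINS4 was at 0.49. The activation set kept a median below that of all genes under each scaling in both lines.

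GINS2, PRIM1 and ORC6 were printed 10 times on each array, which gives their spot spread directly. The mean log2 level of GINS2 relative to the 75th percentile was 6.51 ± 0.35 (SD over 10 spots) with vehicle and 5.52 ± 0.37 (10 spots) with AZA in MDS-L cells, and 6.53 ± 0.51 and 6.28 ± 0.55 (10 spots each) in MDS-L/CDA cells. For GINS2 the spots of the MDS-L arrays did not overlap between treatments, with a lowest vehicle spot of 5.97 and a highest AZA spot of 5.95, while those of the MDS-L/CDA arrays did. PRIM1, the catalytic primase subunit, was at 5.03 ± 0.06 (8 spots) and 4.56 ± 0.14 (9 spots) in MDS-L cells, against 5.44 ± 0.15 (10 spots) and 5.54 ± 0.16 (9 spots). ORC6 was at 3.09 ± 0.15 (10 spots) and 2.73 ± 0.07 (9 spots), against 3.24 ± 0.27 and 3.50 ± 0.21 (10 spots each). In MDS-L cells the spots of all 3 separated by treatment, and in MDS-L/CDA cells the spots of all 3 overlapped. Spots share 1 RNA sample, so this separation speaks for the arrays and not for other cultures. How many other probes printed 10 times separate in this way is not given here. Their spots also varied more on the MDS-L/CDA arrays (median SD 0.154 and 0.205) than on the MDS-L arrays (0.118 and 0.142). The contrast between the lines was therefore not tested.

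**Figure D2:**
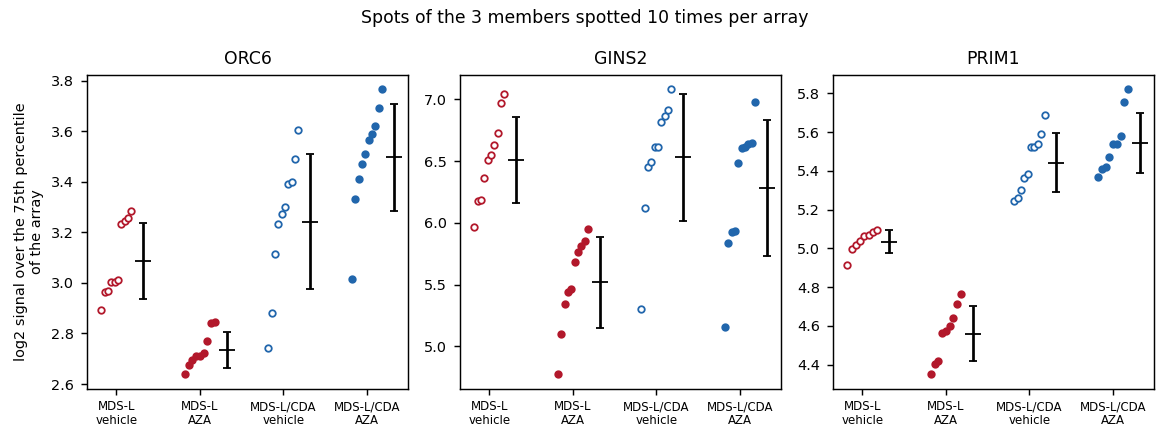
Log2 signal relative to the array's 75th percentile (y axis) of every spot of ORC6, GINS2 and PRIM1 on the 4 arrays (x axis), open for vehicle and filled for AZA, in order of value. Black bars are the mean and SD over 8 to 10 spots. The MDS-L AZA spots are the low group for each gene.

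In the clamp and its loader, 3 of 6 genes were at least 1.5-fold lower in MDS-L cells. RFC1, the large subunit of the loader, gave 1454 with vehicle and 664 with AZA in MDS-L cells, and 1065 and 970 in MDS-L/CDA cells. RFC2 gave 1091 and 508, then 878 and 850. Both had the MDS-L AZA array as the lowest of the 4, with log2 ratios of -1.14 for RFC1 and -1.11 for RFC2, while in MDS-L/CDA cells they were at -0.005 and 0.08, RFC1 being among the 3 nearest to 1. PCNA gave 10305 and 6520, then 7181 and 4492, and was lower with AZA in both lines by a similar amount (log2 ratios -0.67 and -0.55). The smaller subunits RFC3, RFC4 and RFC5 were at -0.58, -0.37 and -0.57 in MDS-L cells and within 0.27 of zero in the resistant line, but a second RFC3 probe was at 0.59 in MDS-L cells. A second PCNA probe read -2.27 in MDS-L cells, against -0.40 in MDS-L/CDA cells, so its direction was shared by both probes and its size was not.

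Polymerase alpha and primase held the largest difference and the least settled one. PRIM2, the large primase subunit, gave 697 with vehicle and 236 with AZA in MDS-L cells, and 89.9 and 266 in MDS-L/CDA cells. Its low arrays were MDS-L/CDA vehicle and, to a lesser degree, MDS-L AZA and MDS-L/CDA AZA. The log2 ratios were -1.58 in MDS-L cells, against 1.70 in MDS-L/CDA cells. A second PRIM2 probe well above background on all 4 arrays read -0.34 and 0.56, and another, well above background on 3 arrays, read -1.02 and -1.62. POLA2, the accessory subunit of polymerase alpha, gave 280 and 171, then 115 and 271, again with the MDS-L/CDA vehicle array as the lowest (log2 ratios -0.72 and 1.37). POLA1, the catalytic subunit, did not share this low value, with 1504 and 837, then 1387 and 1072, and log2 ratios of -0.86 and -0.24.

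Of the 5 subunits of polymerases delta and epsilon, 3 were at least 1.5-fold lower in MDS-L cells. POLD2 gave 736 with vehicle and 306 with AZA in MDS-L cells, and 860 and 664 in MDS-L/CDA cells (log2 ratios -1.28 and -0.24). POLD3 gave 2154 and 986, then 2079 and 1521 (log2 ratios -1.14 and -0.32). These accessory subunits of polymerase delta were lowest on the MDS-L AZA array. The catalytic subunits showed smaller differences, with log2 ratios of -0.34 for POLD1 and -0.28 for POLE, and POLE2 was at -0.67. The direction of POLE differed by probe in both lines, since a second probe read 0.28 and 0.50 where the first read -0.28 and -0.41.

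Among the genes for single-stranded DNA binding and lagging strand maturation, 3 of 5 were at least 1.5-fold lower in MDS-L cells. FEN1, the flap nuclease, gave 795 with vehicle and 444 with AZA in MDS-L cells, and 533 and 403 in MDS-L/CDA cells (log2 ratio -0.85 in MDS-L cells). LIG1, which seals the fragments, gave 4216 and 2503, then 2913 and 3587, with AZA the lower array in MDS-L cells only (log2 ratios -0.76 and 0.43). RPA3, a subunit of the single-strand binding complex, gave 4223 and 2746, then 4235 and 2502, and was lower with AZA by the same amount in both lines (log2 ratio -0.63 in each). RPA1 and RPA2 were at -0.50 and -0.45 in MDS-L cells, but at 0.43 and 0.42 in MDS-L/CDA cells, but the second probe of RPA2 read -0.87 and -0.78, and that of RPA1 -0.46 and -0.49. The complex therefore had no single direction in MDS-L/CDA cells on these arrays.

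The nucleotide enzymes had small differences in MDS-L cells, as the origin recognition complex did. None of RRM1, RRM2, TYMS and TK1 was 1.5-fold lower in MDS-L cells, and their median log2 ratio was -0.31. RRM1, the large subunit of ribonucleotide reductase, gave 3557 with vehicle and 3064 with AZA (log2 ratio -0.23) and was among the 3 members nearest to 1, crossing to 0.04 at most under other scalings. TYMS, which makes thymidylate, gave 15765 and 12400 in MDS-L cells and 11101 and 5836 in MDS-L/CDA cells. It was the member with the lowest AZA/vehicle ratio in the resistant line, at -0.80 (1.74-fold lower), against -0.36 in MDS-L cells. RRM2 and TK1, in contrast, were at 0.48 and 0.23 in MDS-L/CDA cells.

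As a whole, the members of the resistant line sat near a ratio of 1. In MDS-L/CDA cells the median log2 AZA/vehicle ratio was -0.04 against 0.02 for the 15393 genes tested, and 25 of 46 were below 1. Under other scalings between 23 and 30 were below 1, and 7 genes changed side. At least 1.5-fold lower were 3 of 46 (TYMS, ORC3 and RPA3), where 10.9% of all genes were, and at least 1.5-fold higher 2 of 46 (PRIM2 and POLA2), where 10.6% of all genes were. Both shares were below those of all genes. At 2-fold, 0 of 46 were lower against 4.19% of all genes, and by the rule with the Z score 2 of 46 were higher, again PRIM2 and POLA2, against 2.10%. Without these 2 genes no member was 1.5-fold higher. The ratios of 23 members lay within 1 SD of the spots of a ratio of 1, as did 52.3% of the genes tested in both lines.

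**Figure D3:**
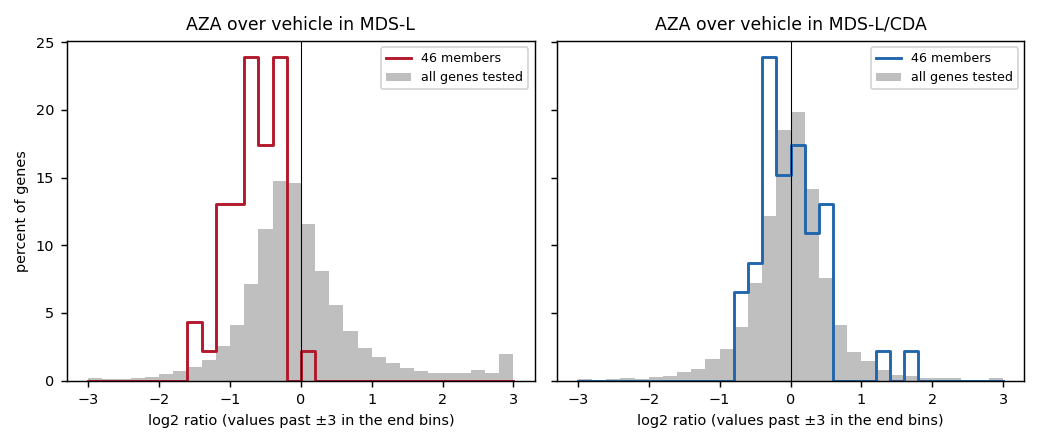
Share of genes in percent (y axis) by log2 AZA/vehicle ratio (x axis) in MDS-L (left) and MDS-L/CDA cells (right), with all genes tested in grey and the 46 genes as an outline. The outline lies left of the grey in MDS-L cells (medians -0.66 and -0.13) and over it in MDS-L/CDA cells (-0.04 and 0.02).

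Setting the lines against each other, 43 of 46 genes had a more negative log2 ratio in MDS-L than in MDS-L/CDA cells, with ORC2, POLE and TYMS as the exceptions. The median difference between the lines was -0.62, against -0.14 for all 15212 genes tested in both, of which 61.3% were more negative in MDS-L cells. Past the 1.5-fold limit on the lower side in both lines were ORC3 (by 1 of its probes) and RPA3, where 4.21% of those 15212 genes were. The limit was passed in MDS-L cells alone by 24 genes, where 15.2% of all genes did so, and in MDS-L/CDA cells alone by TYMS, where 6.43% did. Whether any of these differs between the lines was not tested. Below 1 in both lines were 24 genes (36.3% of all genes), and 21 were below 1 in MDS-L and above 1 in MDS-L/CDA cells (26.2% of all genes). These counts depend on the scaling, since 7 genes change side in MDS-L/CDA cells. Across the 46 genes the ratios of both lines correlated at r = -0.07, and at 0.22 without PRIM2 and POLA2, where all 15212 genes gave 0.41. The 2 comparisons share a slide but no array, and genes are not independent replicates.

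The levels on the 4 arrays show which array this rests on. After scaling, the MDS-L AZA array held the lowest level of 41 of the 46 genes, where 47.4% of the 13962 genes well above background on all arrays had their lowest level there. The exceptions were ORC2, lowest with MDS-L vehicle, POLA2 and PRIM2, lowest with MDS-L/CDA vehicle, and PCNA and TYMS, lowest with MDS-L/CDA AZA. None of the 46 had its highest level on the MDS-L AZA array, where 16.0% of all genes did. The highest level was on an MDS-L/CDA array for 40 genes, 20 with vehicle and 20 with AZA, where 62.0% of all genes had theirs on those arrays. These counts of highest levels depend on the scaling. With vehicle, 33 members were higher in MDS-L/CDA than in MDS-L cells, but 17 with no scaling and 6 with scaling to the median. The exception of PCNA rests on its brighter probe.

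**Figure D4:**
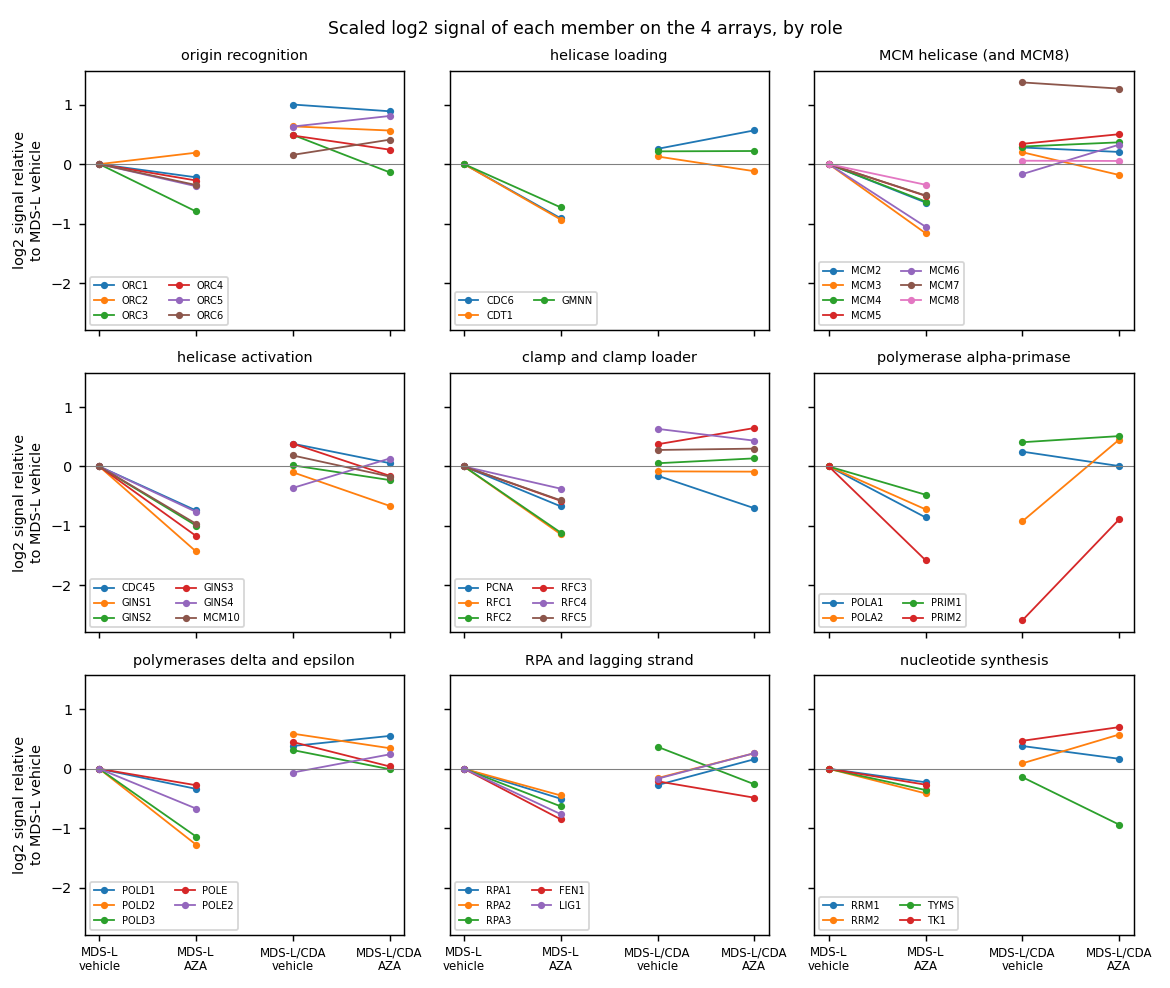
Scaled log2 signal of each gene relative to its value on the MDS-L vehicle array (y axis) on the 4 arrays (x axis), by role, with lines joining vehicle and AZA of 1 cell line. The MDS-L AZA points form the low column in most panels, and PRIM2 and POLA2 dip with MDS-L/CDA vehicle. The height of the MDS-L/CDA vehicle points against zero changes side under other scalings for 28 genes.

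With vehicle alone, the lines differed little and the direction depended on the scaling. The median log2 MDS-L/CDA over MDS-L ratio was 0.25 with the 75th percentile against 0.07 for all 16015 genes, but -0.27 with scaling to the median, -0.11 with no scaling and -0.00639 with normexp background correction. At least 1.5-fold higher in MDS-L/CDA cells were 6 of 46 (7.96% of all genes) and at least 1.5-fold lower 2 of 46 (10.4% of all genes). MCM7 was the highest, with a log2 ratio of 1.37 with vehicle and 1.80 with AZA. Its signals were 16911 and 11822 in MDS-L cells and 33998 and 28918 in MDS-L/CDA cells, both of the latter above both of the former, and a second MCM7 probe, for which the ratios were 0.92 and 2.15, had the same order of lines. ORC1 followed at 1.00 with vehicle and 1.11 with AZA, and ORC2, RFC4, ORC5 and POLD2 lay between 0.59 and 0.63. The lower pair was PRIM2 at -2.59 and POLA2 at -0.92. For PRIM2 this rests on 1 probe, since the other probe well above background on all arrays read 0.27.

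With AZA, the MDS-L/CDA over MDS-L ratio had a median of 0.88 against 0.17 for all 16739 genes. At least 1.5-fold higher in MDS-L/CDA cells were 37 of 46, where 20.3% of all genes were, and 0 of 46 were at least 1.5-fold lower, where 15.9% of all genes were. This comparison shares its arrays with the AZA/vehicle comparisons and is not separate evidence. After MCM7 at 1.80, the largest ratios were those of POLD2 at 1.62, CDC6 at 1.48, MCM6 at 1.38, RFC2 at 1.25, RFC3 at 1.22, ORC5 at 1.18 and POLA2 at 1.17. Below 1 were TYMS at -0.58 and PCNA at -0.03, although the second PCNA probe was at 0.83. The members' median lay above that of all genes by 0.71 on the log2 scale, by 0.61 with quantile normalization, by 0.55 with normexp and by 0.45 with no filter on dim probes.

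**Figure D5:**
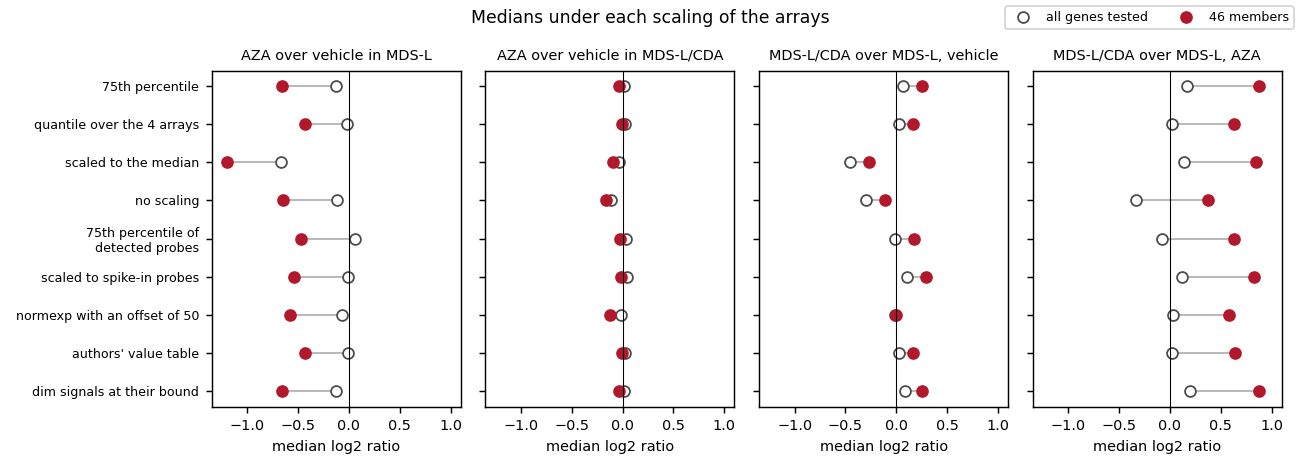
Median log2 ratio (x axis) of the 46 genes (filled) and of all genes tested (open) in the 4 comparisons under the 75th percentile scaling and 8 other ways to scale or correct the signals (y axis). The gap between the points in MDS-L cells lies between -0.53 and -0.42 throughout, whereas the members' median of the vehicle comparison lies on both sides of zero.

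The E2F word split the 40 matched genes into sets of equal size. The 20 genes with an E2F word had a median log2 ratio of -0.75 with AZA in MDS-L cells, from -1.43 (GINS1) to -0.28 (POLE), and 15 of them were at least 1.5-fold lower. The 20 without one had a median of -0.44, from -1.58 (PRIM2) to 0.19 (ORC2), and 7 of them were at least 1.5-fold lower, beside 19.0% of all genes tested. In MDS-L/CDA cells the medians were -0.17 and 0.01. For MDS-L/CDA over MDS-L with AZA they were 0.89 and 0.84. The set without an E2F word included ORC1, ORC2, ORC4, ORC5, ORC6, RRM1, RRM2 and TK1, from roles with small differences in MDS-L cells. ORC3 and TYMS of the same roles held a word. Word and role were not told apart, and no difference between the sets was tested. The ranges of both sets overlapped widely, and RFC1, RFC2 and POLD2 were among the largest differences in MDS-L cells with no E2F word in the window. For CCAAT the medians with AZA in MDS-L cells were -0.67 for the 25 genes that hold it and -0.67 for the 15 that do not.

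Genes that work beside the 46 were read from lists chosen by function, and their counts are to be read beside the 19.0% of all genes that were at least 1.5-fold lower in MDS-L cells and the 16.1% that were higher. Of 14 further licensing and origin firing genes, 7 (50.0%) were at least 1.5-fold lower in MDS-L cells and 0 higher (median -0.58), led by TICRR, with a signal of 910 with vehicle and 459 with AZA. In log2 ratio RECQL4 was at -0.90, DONSON at -0.89 and CDC7, a kinase that fires origins, at -0.80. Of 17 further fork genes measured, 7 (41.2%) were lower and 1 higher (median -0.50). DSCC1, part of an alternative clamp loader, was at -1.94, RNASEH2C at -1.01 and CLSPN at -0.92, while POLD4, a small subunit of polymerase delta, was at 1.09, opposite to POLD2 and POLD3. All these lists lay below the median of all genes under each scaling in MDS-L cells, as did the lists that follow.

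Of 8 genes measured for chromatin assembly and maintenance at the fork, 6 (75%) were at least 1.5-fold lower in MDS-L cells and 0 higher (median -0.81). CHAF1A, the large subunit of the histone chaperone CAF-1, was at -1.46 in MDS-L and 1.21 in MDS-L/CDA cells, NASP, a histone chaperone, at -1.33 and -0.62, and UHRF1, which brings DNMT1 to newly copied DNA, at -1.14 and -0.24, with CHAF1B at -0.82 and 0.01. DNMT1, the maintenance DNA methyltransferase and a target of AZA, gave 445 with vehicle and 358 with AZA in MDS-L cells and 365 and 372 in MDS-L/CDA cells (log2 ratios -0.32 and 0.16). Its RNA differed less than that of most fork chromatin genes in MDS-L cells.

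Of 34 other nucleotide synthesis genes measured, 11 (32.4%) were at least 1.5-fold lower in MDS-L cells and 0 higher, with a median of -0.39. Among them were ADSL of purine synthesis at -2.72, DHODH of pyrimidine synthesis at -1.64 and CTPS1, which makes CTP, at -1.46. The wider pathway thus held larger differences than the 4 members, among which RRM2 was the lowest at -0.41. Of 17 E2F and RB regulators, 7 (41.2%) were lower and 0 higher (median -0.45), with E2F5 at -1.28, LIN52 at -1.16, E2F8 at -1.10 and E2F1 at -0.83.

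For 11 replication checkpoint genes the counts were 4 (36.4%) lower and 1 higher (median -0.51), the latter being HUS1, which was not well above background on the MDS-L vehicle array. CHEK1, the kinase downstream of ATR, was at -1.28, CDC25A at -1.23, WEE1 at -0.86 and RAD9A at -0.65. Mitosis and G2/M genes, which peak after replication, were lower too, by less. Of 28 such genes, 8 (28.6%) were at least 1.5-fold lower and 0 higher, with a median of -0.46 in MDS-L cells, led by BUB1B at -0.88, NDC80 at -0.84, KIF11 at -0.82 and CENPA at -0.77. In MDS-L/CDA cells the same list had a median of 0.15. In bulk RNA, a smaller share of cells in S phase and less RNA per cell cannot be told apart, and the cell cycle was not measured on these arrays.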

How the data were processed

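Total RNA of 4 cultures was labelled with Cy3 and hybridized to Agilent arrays with 60-base probes. The authors deposited scanner output (Agilent Feature Extraction 10.7.1.1, protocol GE1_107_Sep09) as background-subtracted spot intensity, with no normalization between arrays, and a table of 51664 gene probes whose columns have the same distribution, as quantile normalization gives. Probe positions in the deposited intensity files are those of hg19.

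Controls and outlier spots were removed, which left 16 probes with no spot. The mean log2 signal of each probe's spots was taken relative to the array's 75th percentile. A gene was tested where it was well above background on at least 1 array of the pair. Of the 46 genes, 34 had 1 probe and 12 several. A difference of 1.5-fold counted as called. For the Z score, probes were taken in 10 bins of mean signal, and each log2 ratio was divided by the SD of its bin. The paper does not say how its own Z score was computed. The SD of a ratio comes from probes printed 10 times. The 1.5-fold count was tested on simulated data with known folds. The outcome of that simulation is not reported here. With 1 array per condition it cannot cover the spread between cultures.

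The members and the 9 gene lists (150 genes, 2 not on the array) were chosen with earlier results of these data known. Named were members past 1.5-fold, at most the 8 largest per direction and comparison, the 3 nearest to a ratio of 1 with AZA in each line, CDA, DNMT1 and up to 4 genes per list by size in MDS-L cells. Other members are named so that every member is accounted for. Some genes of the lists are not reported here. Alternatives were 8 other scalings or corrections, other filters, other rules for several probes, other folds and, chosen after seeing the data, leaving out PRIM2 and POLA2. Probe sequences and their place in exons were not analysed here. Python 3.11.15, numpy 2.4.6, pandas 2.3.3, matplotlib 3.10.9, R 4.3.3 and limma 3.58.1 (normexp with an offset of 50) were used. The number of arrays, 1 per condition, limits the precision.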

Additional observations from a re-analysis of the deposited data

Results flagged for a closer look

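For 10 of the 46 genes the AZA array was below vehicle in MDS-L cells and above it in MDS-L/CDA cells, each by more than 1 SD of the spots, as for 6.64% of the 15212 genes tested in both lines. With 1 array per condition none of these differences was tested. The log2 ratio in MDS-L minus that in MDS-L/CDA cells was -3.27 for PRIM2 and -2.09 for POLA2, both resting on a low signal on the MDS-L/CDA vehicle array, which for PRIM2 was seen with 1 probe and not with the other probe well above background on all arrays (69.4 there, against 74.5 on the MDS-L vehicle array). It was -1.55 for MCM6, -1.26 for GINS4, -1.19 for LIG1, -0.94 for RPA1, -0.90 for RRM2, -0.87 for RPA2, -0.85 for RFC3 and -0.50 for TK1. The second probes of RPA1 and RPA2 were lower with AZA in both lines, and that of RFC3 was higher with AZA in both. Of 11 genes with more than 1 probe well above background on all arrays, the probes had the same direction for 8 in MDS-L and for 5 in MDS-L/CDA cells.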

How the results depend on the processing

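The members' median log2 AZA/vehicle ratio in MDS-L cells, -0.66 with the 75th percentile, was -0.43 both in the authors' value table and with quantile normalization, and -1.20 with scaling to the median, which also moved the median difference between the lines to -1.11. The count of members at least 1.5-fold lower in MDS-L cells was 26, beside 19.0% of all genes. It was 45 with scaling to the median (55.9% of all genes). With the 75th percentile of probes well above background on all arrays it was 16 (12.1% of all genes). At 2-fold it was 9 (7.12%), and with the Z score added 8 (2.67%). The share of all genes thus moved with the count. The count at least 1.5-fold higher in MDS-L/CDA cells, 2, was 1 with the mean of all probes of a gene and 0 without PRIM2 and POLA2. The MDS-L/CDA over MDS-L median with AZA, 0.88, was 0.63 with quantile normalization or the 75th percentile of detected probes, 0.64 with the authors' value table, 0.58 with normexp and 0.37 with no scaling. With vehicle it changed sign, to -0.27 with scaling to the median, -0.11 with no scaling and -0.00639 with normexp. Over every alternative run, the members' median in MDS-L cells lay between 0.42 and 0.69 below that of all genes on the log2 scale. No paired analysis was possible because each condition has 1 array and no replicate number, and no array could be left out.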
